A study of Mus musculus with 8 samples.

Results

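Glucocorticoid-responsive genes were examined in mouse bone marrow mesenchymal stem cells (MSCs) because the osteogenic medium used here contains dexamethasone, a synthetic glucocorticoid. The 10 genes were a list chosen by name, *Nr3c1*, *Fkbp5*, *Tsc22d3*, *Zbtb16*, *Sgk1*, *Dusp1*, *Klf9*, *Mt1*, *Mt2* and *Lcn2*, and all 10 were found among the 24346 genes of the expression table. No measured value entered the choice of the list by name, although earlier results of these data were known. MSCs are adherent stromal cells of the marrow with the capacity to become osteoblasts, adipocytes or chondrocytes.

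RNA was sequenced from 8 libraries, 2 in each of 4 groups: undifferentiated wild type (WT), differentiating WT, undifferentiated *Dnmt3l* knockout (KO) and differentiating *Dnmt3l* KO MSCs. The cells came from C57BL/6 female mice carrying a null allele of *Dnmt3l*, a cofactor of the de novo DNA methyltransferases, and from WT littermates, with the cells of several mice mixed by genotype and depleted of CD11b and CD45 positive cells. All libraries were made at passage 4. Undifferentiated MSCs were grown in αMEM with 20% fetal bovine serum, a medium whose listed additives held no dexamethasone. Differentiating MSCs of both genotypes were kept for 3 days in αMEM with 10% serum, 0.1 μM dexamethasone, 10 mM β-glycerophosphate and 50 μM ascorbate 2-phosphate. The serum, the other additives and the days in culture therefore changed together with dexamethasone, and their parts in any difference between the states cannot be told apart. Separate cultures for the 2 libraries of a group are not stated in the sources used here, so p-values measure the spread between libraries, which may be technical.

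Glucocorticoids bind the glucocorticoid receptor, the product of *Nr3c1*, which is held in the cytoplasm by heat shock protein 90 and its cochaperones. The bound receptor enters the nucleus and activates genes at glucocorticoid response elements (GREs), inverted repeats of a short half-site, and it lowers many inflammatory genes. In marrow stromal cells, dexamethasone is a standard component of both osteogenic and adipogenic media.

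Values are RPKM, reads per kilobase of transcript scaled by library, so levels are per length and can be set side by side between genes. *Dnmt3l* was at 0.830 to 1.56 RPKM in the 4 WT libraries and was listed at 0 in the 4 KO libraries, so no library went against its genotype label. A value of 0 in this table can be a failed estimate, since the cytoskeletal gene *Actb* was listed at 0 in both undifferentiated KO libraries. The total read depth is not given by RPKM, but the steps between low values put the libraries at 1 to 1.39 times the depth of replicate 1 of undifferentiated KO MSCs, with replicate 1 of differentiating WT MSCs the deepest. The 7 MSC markers summed to 831 to 833 RPKM in undifferentiated and 2179 to 2228 RPKM in differentiating WT libraries, and to 1066 to 1081 and 2862 to 2946 RPKM in the KO libraries. *Ly6a* carried most of the rise, from a mean of 474 to 1847 RPKM in WT and from 646 to 2563 RPKM in KO MSCs. With a limma adjusted p under 0.05, 4 of the 7 rose and 3 fell in WT MSCs (31.6% and 32.8% of tested genes). In KO MSCs 2 rose and 4 fell (5577 and 5609 of 15342 tested genes). *Ly6a* and *Pdgfra* were DEGs with higher expression in both genotypes (9.69% in WT, 13.0% in KO MSCs). *Cd44* fell from 177.0 and 170.2 to 97.1 and 98.3 RPKM in WT and from 229.7 and 232.2 to 63.0 and 52.9 RPKM in KO MSCs. *Ptprc*, which encodes CD45, an antigen of the depletion, did not exceed 0.127 RPKM in any library. *Itgam*, which encodes the other antigen, CD11b, was at 0.0908 and 0.139 RPKM in undifferentiated and 0.293 and 0.356 RPKM in differentiating WT libraries. In the KO libraries *Itgam* did not exceed 0.0463 RPKM. The other macrophage and leukocyte markers are given with the marker sets.

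Promoter windows of RefSeq (GRCm38.p6, 250 bases before to 50 after an annotated start) were held for 8 of the 10 genes, in 15 windows, and were searched on both strands for GRE and metal response element (MRE) letters. The full inverted repeat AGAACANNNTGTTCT was found in 1 of these windows, at *Sgk1*, and in 3 of 32851 windows of all genes (0.00913%). The half-site AGAACA, which is also part of the full repeat, was found in 18.97% of all windows and, among the 10 genes, in windows of *Tsc22d3* and *Sgk1*. The MRE core, searched as TGCACNC or TGCGCNC, was found in 25.7% of all windows, with 3 matches at *Mt1* and 4 at *Mt2* and 1 each in windows of *Sgk1* and *Dusp1*. The windows of *Sgk1* (chr10:21993640-21993939, plus strand), *Mt1* (chr8:94178839-94179138, plus strand) and *Mt2* (chr8:94172368-94172667, plus strand) are shown because they hold these motifs, with GRE half-sites, the full repeat and MRE cores in capitals. A match is a description of the letters only.
Sgk1: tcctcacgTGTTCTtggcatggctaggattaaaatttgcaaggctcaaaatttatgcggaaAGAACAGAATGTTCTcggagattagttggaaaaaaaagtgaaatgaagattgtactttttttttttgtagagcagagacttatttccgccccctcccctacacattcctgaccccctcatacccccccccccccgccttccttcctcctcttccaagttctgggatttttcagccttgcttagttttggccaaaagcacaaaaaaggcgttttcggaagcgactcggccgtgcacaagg
Mt1: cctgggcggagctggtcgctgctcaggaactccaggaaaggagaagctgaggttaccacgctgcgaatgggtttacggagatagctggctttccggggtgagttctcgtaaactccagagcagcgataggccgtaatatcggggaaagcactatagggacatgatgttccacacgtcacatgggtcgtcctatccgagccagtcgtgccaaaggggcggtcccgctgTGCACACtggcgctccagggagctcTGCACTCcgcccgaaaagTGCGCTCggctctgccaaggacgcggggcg
Mt2: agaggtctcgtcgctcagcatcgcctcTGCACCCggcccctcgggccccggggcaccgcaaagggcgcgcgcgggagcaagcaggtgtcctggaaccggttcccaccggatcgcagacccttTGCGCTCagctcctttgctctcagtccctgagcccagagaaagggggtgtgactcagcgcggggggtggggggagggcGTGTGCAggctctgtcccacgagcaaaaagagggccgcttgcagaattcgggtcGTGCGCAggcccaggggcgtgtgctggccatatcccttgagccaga

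Differentially expressed genes (DEGs) were those past a log2 fold limit of 1 in either direction with an adjusted p under 0.05 in limma, with p-values adjusted over all 15342 genes tested, of which all 10 genes were part. In WT MSCs, 7 of the 10 genes were DEGs with higher expression in the differentiating state, against 9.69% of all tested genes, and *Nr3c1*, *Sgk1* and *Dusp1* were below the fold limit. All 10 had a higher level with an adjusted p under 0.05, against 31.6% of tested genes, and all 10 had groups that did not overlap, against 41.5%. In KO MSCs, 8 of 10 were DEGs with higher expression (13.0% of tested genes), since *Sgk1* also passed the fold limit. All 10 again passed the adjusted p (36.4%) without overlap of the groups (42.5%). Genes were tested if their mean over the 8 libraries reached 0.1 RPKM. *Zbtb16* and *Lcn2* had means under this level in both undifferentiated groups and passed only through the differentiating libraries. The direction of both was thus fixed by this minimum, and they are among the genes counted above. The same limit holds for genes of the lists below with means under this level in only 1 state. The median log2 fold change of the 10 genes was 3.46 in WT and 4.42 in KO MSCs, whereas the median of all tested genes was within 0.0001 of 0 in both. Both comparisons rest on bulk RNA, in which more RNA per cell and more cells of an expressing type cannot be told apart.

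**Figure D1:**
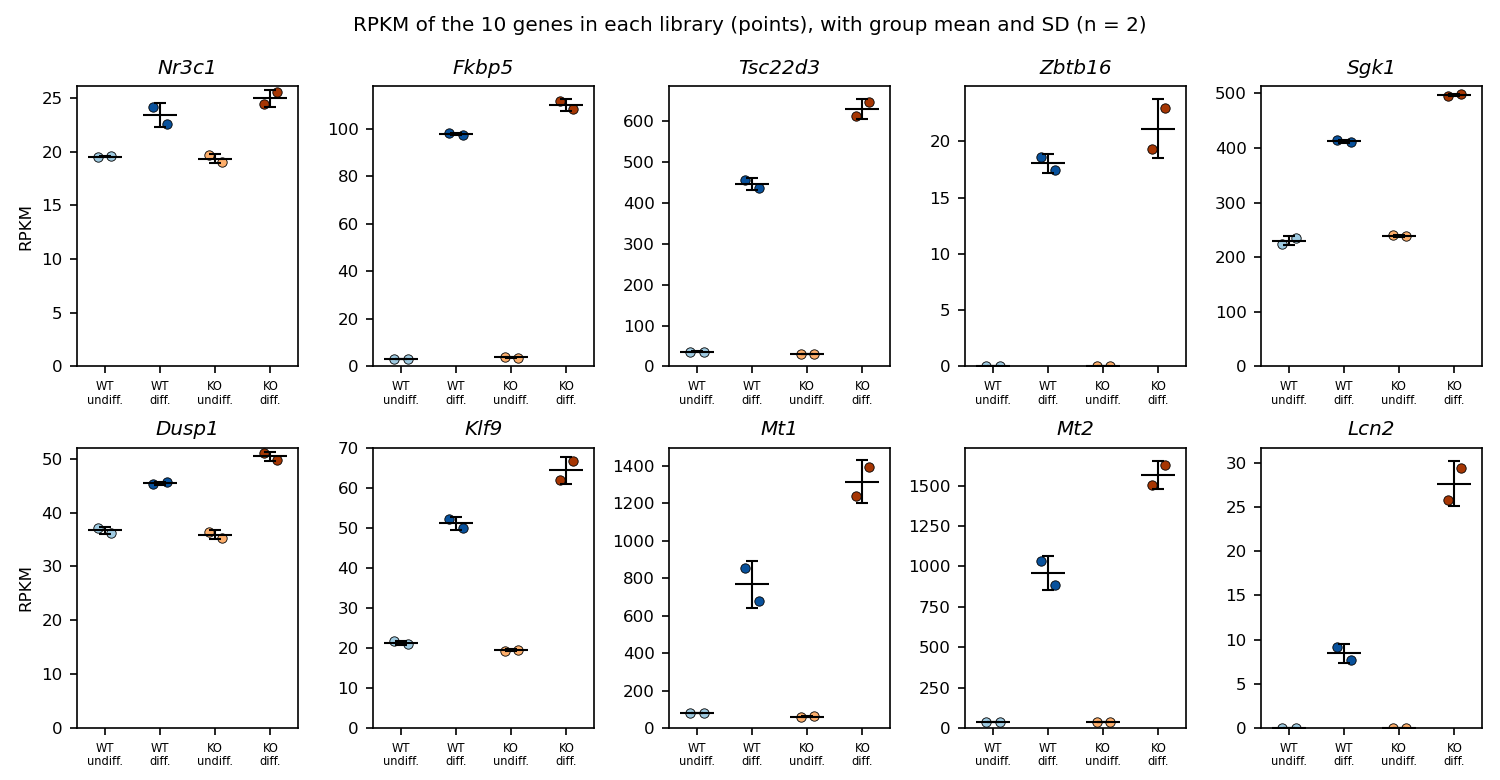
RPKM (vertical axes, starting at 0) of each of the 10 genes in the 8 libraries, with points for libraries and lines and bars for the mean and SD of 2 libraries per group. In all 10 panels both differentiating libraries of a genotype lie above both undifferentiated libraries of that genotype.

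*Nr3c1* itself (chromosome 18) moved little. Its level was 19.5 and 19.6 RPKM in undifferentiated WT and 24.2 and 22.6 RPKM in differentiating WT MSCs. In KO MSCs it was 19.6 and 19.1 RPKM before and 24.4 and 25.5 RPKM after induction. The receptor was thus highest in the differentiating libraries of both genotypes, with no overlap between states. The log2 fold change was 0.26 (SE 0.044) in WT and 0.37 (SE 0.044) in KO MSCs, with limma adjusted p of 0.00265 and 0.000398.

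*Fkbp5* encodes FKBP51, a cochaperone of heat shock protein 90 that lowers the affinity of the receptor for its ligand and is itself a direct receptor target. It is on chr17:28399094-28517527 (minus strand). Expression was 3.20 and 3.08 RPKM in undifferentiated and 98.2 and 97.5 RPKM in differentiating WT MSCs. In KO MSCs it was 4.01 and 3.60 RPKM before and 111.8 and 108.3 RPKM after induction. The states were far apart in both genotypes, and the mean ratio was 31.2-fold in WT and 28.9-fold in KO MSCs. The log2 fold change was 4.92 in WT and 4.82 in KO MSCs, each with an SE of 0.055 (limma adjusted p = 2.7e-07 and 9.6e-08).

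*Zbtb16*, the gene of the transcription factor PLZF, had the largest fitted log2 fold change of the 10 genes in WT MSCs. It is on chr9:48654297-48836222 (minus strand). Undifferentiated libraries held almost none of it, at 0.0166 and 0.00397 RPKM in WT and 0.00844 and 0.00820 RPKM in KO MSCs. With the smallest common step taken as 1 read, these values were 4, 1, 2 and 2 reads. Differentiating MSCs had 18.6 and 17.5 RPKM (6143 and 4413 reads) in WT and 19.3 and 23.0 RPKM (4774 and 5591 reads) in KO libraries. All recovered reads were within 0.02 of a whole number. The ratio of depth-scaled reads was 1788 in WT (95% exact interval 766 to 5509) and 2537 in KO MSCs (991 to 9313), where the intervals cover counting error only. The pseudocount of 0.1 makes fitted changes of such low genes too small, and here they were 7.36 and 7.61 (SE 0.11 each, limma adjusted p = 4.3e-07 and 1.8e-07).

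*Tsc22d3* encodes GILZ, a leucine zipper protein that mediates anti-inflammatory effects of glucocorticoids. It is on chrX:140539528-140600659 (minus strand). Levels were 34.5 and 36.4 RPKM in undifferentiated and 456 and 436.1 RPKM in differentiating WT MSCs. In KO MSCs they were 29.4 and 30.5 RPKM before and 613 and 648 RPKM after induction. The KO libraries were thus the lowest before and the highest after induction, and no groups overlapped. The log2 fold change was 3.65 in WT and 4.39 in KO MSCs (SE 0.047 each, limma adjusted p = 3.0e-07 and 7.5e-08).

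*Klf9*, a Krüppel-like transcription factor, rose less. Its expression was 21.6 and 21.0 RPKM in undifferentiated and 52.4 and 49.9 RPKM in differentiating WT MSCs. In KO MSCs it was 19.4 and 19.6 RPKM before and 62.1 and 66.8 RPKM after induction. All 4 groups were apart, with the order of *Tsc22d3*. The log2 fold change was 1.26 in WT and 1.72 in KO MSCs (SE 0.045 each, limma adjusted p = 4.9e-06 and 1.0e-06).

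The signalling genes *Sgk1* and *Dusp1* were already expressed before induction. *Sgk1*, a kinase of ion transport and cell survival, was at 224.8 and 235.7 RPKM in undifferentiated and 414 and 411 RPKM in differentiating WT MSCs. In KO MSCs it was at 240.6 and 238.3 RPKM before and 496 and 499 RPKM after induction. It had the highest level of the 10 genes in every undifferentiated library, and the states did not overlap. Its log2 fold change of 0.84 in WT was under and that of 1.05 in KO MSCs just over the DEG limit (SE 0.036 each, limma adjusted p = 9.2e-06 and 2.3e-06). With each library centred on its median, the KO value fell under the limit.

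*Dusp1* encodes MKP-1, a phosphatase that inactivates MAP kinases. It was at 37.2 and 36.2 RPKM in undifferentiated and 45.2 and 45.6 RPKM in differentiating WT MSCs, and at 36.4 and 35.2 RPKM before and 51.0 and 49.9 RPKM after induction in KO MSCs. The states were apart by less than the fold limit. The log2 fold change was 0.31 in WT and 0.49 in KO MSCs (SE 0.031 each, limma adjusted p = 0.000301 and 2.4e-05). Exons of *Ergic1* lie on the opposite strand at *Dusp1*, as do exons of *Gm45774* at *Mt2*, and the alignment was strand-specific by the study's methods.

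*Mt1* and *Mt2* encode metallothioneins, small proteins that bind zinc, copper and cadmium, and their promoters respond to metals as well as to glucocorticoids. The genes are neighbours on chromosome 8 with 5513 bases between them, and no 50-base stretch of their transcripts was shared with another gene. *Mt1* was at 78.7 and 80.2 RPKM in undifferentiated and 856 and 679 RPKM in differentiating WT MSCs. In KO MSCs it was at 59.0 and 61.6 RPKM before and 1237 and 1397 RPKM after induction. The WT libraries under induction differed by more than those of any other group for this gene, yet stayed below both KO libraries.

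*Mt2* was at 36.8 and 35.8 RPKM in undifferentiated and 1033 and 885 RPKM in differentiating WT MSCs. In KO MSCs it was at 34.8 and 35.2 RPKM before and 1505 and 1629 RPKM after induction. It had the highest level of the 10 genes in every differentiating library. The order of the metallothioneins was reversed between states, with a ratio of *Mt2* to *Mt1* of 0.447 to 0.589 in the undifferentiated and 1.17 to 1.30 in the differentiating libraries. The log2 fold change of *Mt1* was 3.26 in WT and 4.44 in KO MSCs (SE 0.11 each, limma adjusted p = 4.6e-06 and 9.1e-07). For *Mt2* it was 4.72 and 5.48 (SE 0.078 each, limma adjusted p = 5.6e-07 and 1.8e-07).

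*Lcn2* encodes lipocalin-2, a secreted protein that binds bacterial siderophores and is a marker of acute inflammation. It is on chr2:32384633-32388252 (minus strand). It was listed at 0 in both undifferentiated WT libraries and at 0.0319 (1 read) and 0 RPKM in the undifferentiated KO libraries. Differentiating WT MSCs had 9.17 and 7.69 RPKM (400 and 257 reads), and differentiating KO MSCs had 25.9 and 29.5 RPKM (846 and 949 reads). The reads thus came almost entirely from the differentiating libraries. No fold is given for WT MSCs, where the undifferentiated group was listed at 0. The ratio of depth-scaled reads in KO MSCs was 1757, with a 95% exact interval of 315 to 69453 that rests on 1 read. The fitted log2 changes of 6.41 and 7.91 depend on the pseudocount (SE 0.16 each, limma adjusted p = 1.5e-06 and 4.2e-07).

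**Figure D2:**
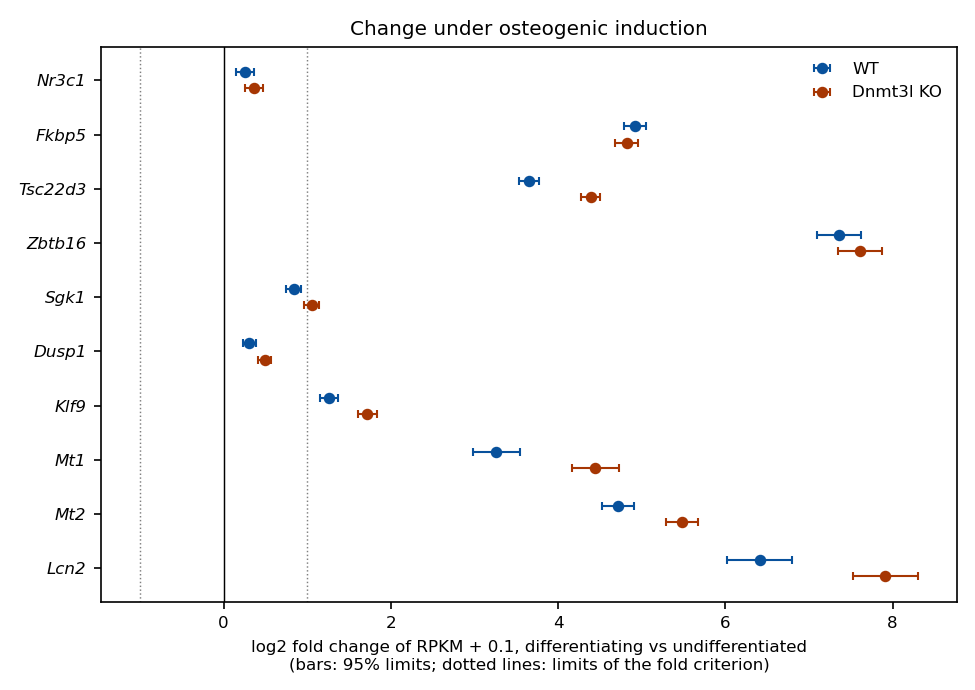
Log2 fold change of RPKM + 0.1 in differentiating against undifferentiated MSCs (horizontal axis) for the 10 genes, in WT and *Dnmt3l* KO MSCs, with 95% limits from limma and dotted lines at the fold limit. All 20 points lie above 0, from 0.26 for *Nr3c1* in WT to 7.91 for *Lcn2* in KO MSCs.

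Before induction, the genotypes differed little in these genes. None of the 10 was a DEG between KO and WT in undifferentiated MSCs in limma (1.70% of tested genes), 4 had an unadjusted p under 0.05, and 3 had an adjusted p under 0.05 (32.2%). *Fkbp5* was higher in KO MSCs by a log2 change of 0.27 (SE 0.055, limma adjusted p = 0.0151), and *Tsc22d3* and *Mt1* were lower with -0.24 (SE 0.047, adjusted p = 0.0131) and -0.40 (SE 0.11, adjusted p = 0.0437). These calls were not robust to the libraries used: none passed without replicate 2 of undifferentiated WT or replicate 1 of undifferentiated KO MSCs, and 1 passed without replicate 2 of undifferentiated KO MSCs. Groups did not overlap for 6 of the 10 genes, against 71.8% of tested genes.

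Under induction, the 10 genes were higher in KO than in WT MSCs in every library pair. All 10 had groups that did not overlap (33.8% of tested genes in this direction), and 7 had an adjusted p under 0.05 with higher expression in KO MSCs (17.8%). *Lcn2* was the only DEG among them (1.36%), with a log2 change of 1.70 (SE 0.16, limma adjusted p = 0.00126). The metallothioneins followed with 0.79 for *Mt1* (SE 0.11, adjusted p = 0.00403) and 0.71 for *Mt2* (SE 0.078, adjusted p = 0.00184). *Tsc22d3* was higher by 0.50 (SE 0.047, limma adjusted p = 0.00128), *Klf9* by 0.33 (SE 0.045, adjusted p = 0.00341), *Sgk1* by 0.27 (SE 0.036, adjusted p = 0.00319) and *Dusp1* by 0.15 (SE 0.031, adjusted p = 0.0124).

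The remaining genes did not pass in this comparison. *Fkbp5* had a log2 difference of 0.17 (95% limits 0.034 to 0.30, limma adjusted p = 0.0526, with 0.0124 to 0.179 over the alternatives). *Zbtb16* had 0.22 (-0.043 to 0.49, limma adjusted p = 0.154) and *Nr3c1* 0.094 (-0.013 to 0.20, adjusted p = 0.137). The call of *Dusp1* was lost without either library of differentiating WT MSCs and in a fit of only the 4 libraries compared (adjusted p = 0.0588 to 0.0596, with 0.00482 to 0.0596 over all alternatives). That of *Lcn2* was lost with a pseudocount of 0.01 (adjusted p = 0.0669, with 0.000213 to 0.0669 over all alternatives).

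**Figure D3:**
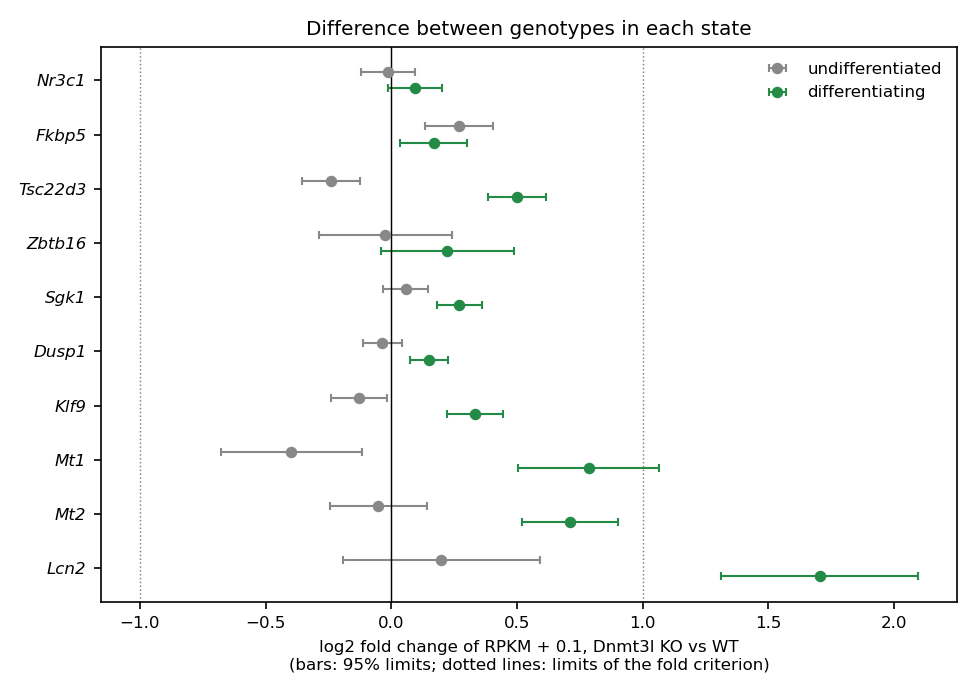
Log2 fold change of RPKM + 0.1 in *Dnmt3l* KO against WT MSCs (horizontal axis) for the 10 genes, in the undifferentiated and the differentiating state, with 95% limits from limma and dotted lines at the fold limit. Undifferentiated values lie between -0.40 and 0.27, and differentiating values between 0.094 and 1.70.

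The interaction of genotype and induction tests whether the change under induction differed between KO and WT MSCs. It was positive, a larger rise in KO MSCs, with an adjusted p under 0.05 for 7 of the 10 genes (19.4% of tested genes), and no gene passed in the other direction. *Lcn2*, by 1.51 (SE 0.23, limma adjusted p = 0.00443), and *Mt1*, by 1.18 (SE 0.16, adjusted p = 0.00336), were also past the fold limit (2.76%). *Mt2* differed by 0.76 (SE 0.11, limma adjusted p = 0.0040), *Tsc22d3* by 0.74 (SE 0.066, adjusted p = 0.0011) and *Klf9* by 0.46 (SE 0.064, adjusted p = 0.00357). Smaller values were found for *Sgk1*, 0.21 (SE 0.051, limma adjusted p = 0.0210), and *Dusp1*, 0.19 (SE 0.044, adjusted p = 0.0201).

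For *Fkbp5*, the interaction was -0.10 (95% limits -0.29 to 0.090, limma adjusted p = 0.352) and turned to 0.0082 under quantile normalization. It was 0.25 (-0.13 to 0.62, limma adjusted p = 0.252) for *Zbtb16* and 0.11 (-0.044 to 0.26, adjusted p = 0.219) for *Nr3c1*. The calls of *Sgk1* and *Dusp1* did not hold in all alternatives, with adjusted p of up to 0.0790 and 0.0706. That of *Lcn2* was lost at a pseudocount of 0.01, at which its interaction was 0.68 (adjusted p = 0.566). The interaction shares its libraries with the other comparisons and is no separate evidence.

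**Figure D4:**
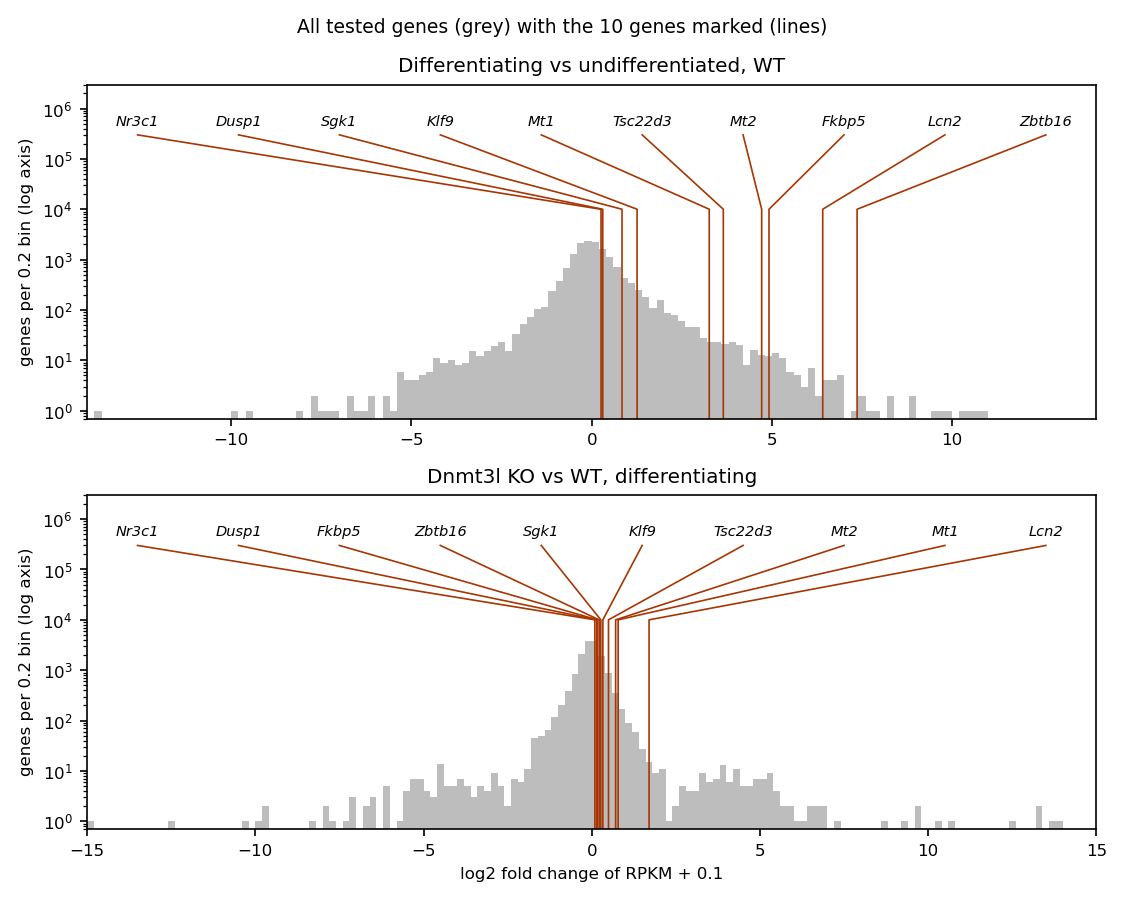
Distribution of the log2 fold changes of all 15342 tested genes (grey, log count axis) for induction in WT MSCs and for *Dnmt3l* KO against WT in differentiating MSCs, with lines at the values of the 10 genes. Under induction the lines run from 0.26 to 7.36 and between genotypes from 0.094 to 1.70, all to the right of 0.

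The relatives of the 10 genes did not move with them in most families. Of the TSC22 family, *Tsc22d1* was nearly level in WT MSCs (110.1 and 116.9 RPKM before, 115.0 and 110.9 RPKM after induction), *Tsc22d2* fell by 0.84 on the log2 scale (limma adjusted p = 5.2e-05) and *Tsc22d4* rose by 0.49 (adjusted p = 0.00049). *Fkbp4* encodes FKBP52, the cochaperone that promotes receptor activity, and it fell by 0.62 in WT and by 1.09 in KO MSCs (limma adjusted p = 8.0e-05 and 4.6e-06). Besides *Fkbp5*, 14 FKBP genes were tested, with *Fkbp4* among them. None was a DEG with higher expression in WT (9.69% of tested genes) or KO MSCs (13.0%). With lower expression, none was a DEG in WT (4.63%) and 4 were in KO MSCs (9.87%), *Fkbp1a*, *Fkbp4*, *Fkbp10* and *Fkbp11*. *Sgk3* stayed at 2.37 to 3.04 RPKM in all libraries, and *Sgk2* did not exceed 0.0181 RPKM.

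Other families held further induced members. Of 16 other KLF genes, 14 were tested, and 4 were DEGs with higher expression in WT MSCs and 5 in KO MSCs, against 9.69% and 13.0% of tested genes. In KO MSCs 1, *Klf16*, was a DEG with lower expression. The largest change was that of *Klf15*, a metabolic transcription factor, from 1.03 and 1.03 to 20.5 and 20.0 RPKM in WT MSCs and from 0.783 and 0.732 to 37.9 and 40.9 RPKM in KO MSCs. Most other MAP kinase phosphatases went the opposite way from *Dusp1*, and of 9 listed and 8 tested, 5 were DEGs with lower expression in WT MSCs and 5 in KO MSCs, against 4.63% and 9.87% of tested genes. *Dusp4* led them in WT MSCs with -1.69 and *Dusp9* in KO MSCs with -2.59 (limma adjusted p = 3.3e-05 and 4.6e-06). Among metallothioneins, *Mt4* was listed at 0 in the 4 undifferentiated libraries and was at 2.23 and 3.12 RPKM in WT and 1.27 and 0.755 RPKM in KO MSCs after induction, while *Mt3* did not exceed 0.356 RPKM. The metal sensor *Mtf1* and zinc transporters changed by less than the fold limit.

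A list of 25 other genes known to be induced by glucocorticoids was set beside the 10. Of these, 21 were tested, 12 were DEGs with higher expression in WT and 15 in KO MSCs, against 9.69% and 13.0% of tested genes, and none was a DEG with lower expression. Of these DEGs, *Fam107a* and *Trim63* passed the expression minimum only through the differentiating libraries, which fixed their direction. The median log2 fold change was 1.28 in WT and 1.69 in KO MSCs. *Cdkn1c*, which encodes the cell cycle inhibitor p57, went from 1.63 and 1.79 to 195.2 and 204.6 RPKM in WT MSCs, and *Fam107a* from 0.0692 and 0.0530 to 5.97 and 5.44 RPKM. *Glul*, glutamine synthetase, went from 15.6 and 15.3 to 387 and 354 RPKM. Between genotypes under induction, 16 of the 21 were higher in KO MSCs with an adjusted p under 0.05 (17.8% of tested genes), 1 was lower, and 2 were DEGs with higher expression (1.36%).

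Partners of the receptor and enzymes of its ligand showed no common direction. Of 17 genes, 6 rose and 7 fell with an adjusted p under 0.05 in WT MSCs, with a median of -0.053. These shares are near those of all tested genes, of which 31.6% rose and 32.8% fell. In KO MSCs 4 were DEGs with higher and 4 with lower expression, against 13.0% and 9.87% of tested genes. *Hsp90aa1*, *Hsp90ab1*, *Fkbp4*, *Ptges3*, *Stip1* and *Bag1* fell with an adjusted p under 0.05 in both genotypes. *Ncoa2*, *Ncoa3* and *Nrip1* rose by the same limit in both, and *Dnaja1* fell in WT and rose in KO MSCs. The DEGs in WT MSCs were *Hsd11b1*, which regenerates active glucocorticoid from its inactive form, and *Hsd11b2*, which inactivates it. *Hsd11b1* went from 1.65 and 1.12 to 5.47 and 5.34 RPKM in WT MSCs and from 1.69 and 2.06 to 9.86 and 9.77 RPKM in KO MSCs. *Hsd11b2* did not exceed 0.711 RPKM in any library.

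Of 20 inflammatory genes known to be lowered by glucocorticoids, 14 were tested. In WT MSCs 7 were DEGs with lower and 3 with higher expression, against 4.63% and 9.69% of tested genes. In KO MSCs 8 were lower and 4 higher, against 9.87% and 13.0%. *Ptgs2*, the inducible cyclooxygenase, fell from 143.5 and 151.4 to 5.85 and 6.62 RPKM in WT MSCs and from 184.1 and 183.0 to 2.68 and 1.79 RPKM in KO MSCs. *Il6* fell by 3.89 and *Lif* by 2.61 on the log2 scale in WT MSCs (limma adjusted p = 5.3e-05 and 9.3e-06). The list therefore had members on both sides, and its median was -0.97 in WT and -1.19 in KO MSCs.

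The acute phase and NF-κB genes listed beside *Lcn2* were mostly higher under induction. Of 12 listed and 10 tested, 8 were DEGs with higher expression in each genotype, against 9.69% (WT) and 13.0% (KO) of those tested. *Saa3*, *C3*, *Orm1*, *Orm2* and *Steap4* had means under 0.1 RPKM in both undifferentiated groups. They passed the expression minimum only through the differentiating libraries, which fixed their direction in these counts. The list's median log2 fold change was 3.10 in WT and 4.58 in KO MSCs. *Hp*, haptoglobin, went from 7.91 and 8.84 to 483 and 440.4 RPKM in WT MSCs and from 6.90 and 8.15 to 862 and 955 RPKM in KO MSCs. *C3*, the central complement component, went from 0.0206 and 0.0789 to 11.3 and 9.21 RPKM in WT and from 0.0714 and 0.0775 to 46.1 and 65.1 RPKM in KO MSCs. All 10 tested genes of this list were higher in differentiating KO than WT MSCs with an adjusted p under 0.05 (17.8% of tested genes), and 6 were DEGs (1.36%).

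**Figure D5:**
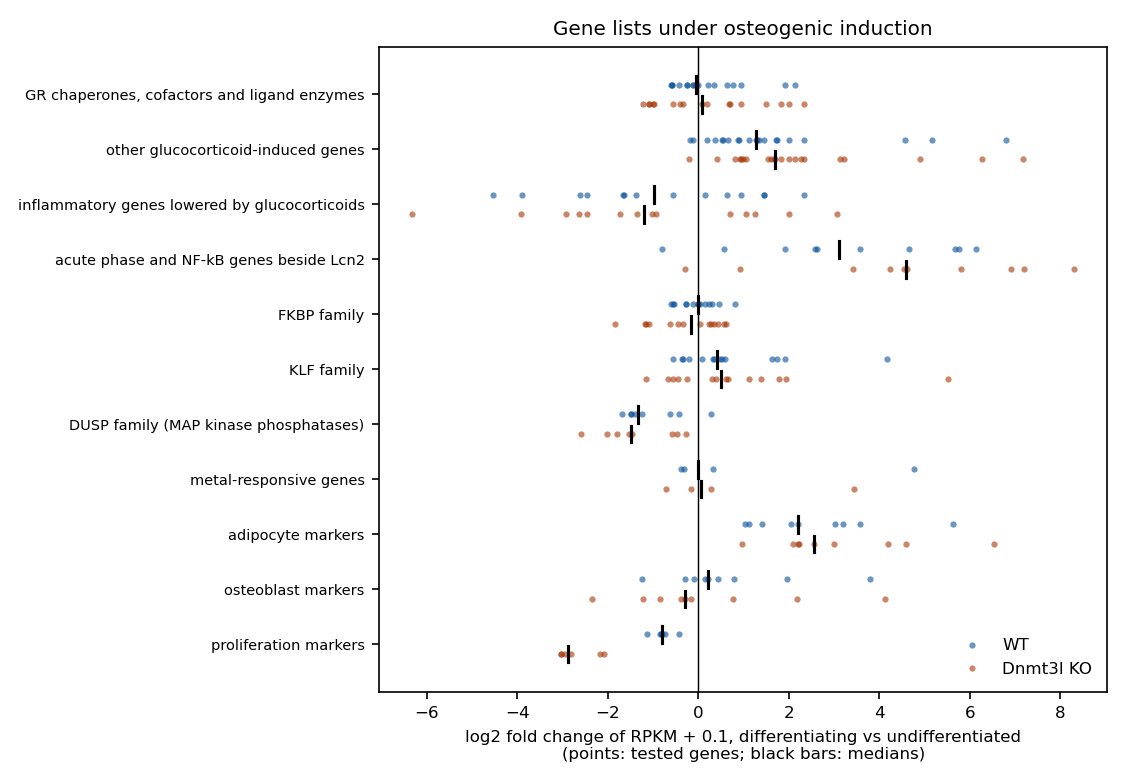
Log2 fold change of RPKM + 0.1 in differentiating against undifferentiated MSCs (horizontal axis) for the tested genes of 11 lists, in WT and *Dnmt3l* KO MSCs, with black bars at the medians. The acute phase list has the highest medians, 3.10 and 4.58, and the proliferation list the lowest in KO MSCs, -2.88.

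Several marker sets also changed between the states, in differing directions. The 9 adipocyte markers summed to 63.4 to 71.9 RPKM in undifferentiated, 473 to 475 RPKM in differentiating WT and 521 to 545 RPKM in differentiating KO libraries. In each genotype 8 of 9 were DEGs with higher expression, against 9.69% (WT) and 13.0% (KO) of tested genes. None was at 0 in both libraries of a group. *Adipoq*, *Plin1*, *Cidec* and *Cfd* had means under 0.1 RPKM in both undifferentiated groups. They passed the expression minimum only through the differentiating libraries, which fixed their direction. The 6 proliferation markers summed to 130.4 to 133.8 RPKM in undifferentiated WT, 67.8 to 74.9 in differentiating WT, 185.9 to 186.6 in undifferentiated KO and 22.9 to 33.6 RPKM in differentiating KO libraries. All 6 were DEGs with lower expression in KO MSCs under induction (9.87% of tested genes), and 5 of them were DEGs lower in KO than WT MSCs in the differentiating state (1.95% of tested genes). The interaction was negative past the fold limit for all 6 (3.42%). Among 14 serum and immediate early genes, listed because the serum was lowered, 6 rose and 6 fell with an adjusted p under 0.05 in each genotype. Of all tested genes, 31.6% rose and 32.8% fell in WT MSCs, and 5577 and 5609 of 15342 in KO MSCs. In WT MSCs none was a DEG with higher (9.69% of tested genes) and 4 were DEGs with lower expression (4.63%). *Ier3* led them with -1.91 (limma adjusted p = 2.0e-06). In KO MSCs 3 were DEGs in each direction (13.0% of tested genes higher and 9.87% lower), led by *Fos* with 2.04 (limma adjusted p = 3.4e-06). The part of these shifts in the results on the 10 genes was not tested.

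The 7 macrophage and leukocyte markers summed to 17.4 to 18.5 RPKM in undifferentiated and 30.0 to 34.2 RPKM in differentiating WT libraries, and to 8.50 to 9.30 and 13.5 to 14.5 RPKM in the KO libraries. The sums, carried largely by *Lyz2*, were below WT in both states, but not every marker was. With an adjusted p under 0.05, 2 were higher and 2 lower in undifferentiated KO than WT MSCs (32.2% of tested genes in either direction). Under induction 1 was higher and 5 were lower (2737 and 3514 of 15342 tested genes). *Cd14* was higher in KO MSCs in both states, with 3.48 and 3.43 RPKM in differentiating WT and 4.67 and 4.90 RPKM in differentiating KO libraries. Of the 6 tested, 5 rose and 1 fell in WT MSCs under induction with an adjusted p under 0.05 (31.6% and 32.8% of tested genes). In KO MSCs 2 rose and 1 fell (5577 and 5609 of 15342 tested genes). *Lyz2*, the lysozyme of myeloid cells, was at 12.8 and 13.4 RPKM before and 22.9 and 26.5 RPKM after induction in WT MSCs, and at 3.43 and 3.19 RPKM before and 6.81 and 7.66 RPKM after it in KO MSCs.

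The neutrophil markers are of interest because neutrophil granules hold *Lcn2*. The 7 found of 8 listed summed to 1.87 to 2.21 RPKM in undifferentiated and 3.08 to 3.10 RPKM in differentiating WT libraries, and to 1.14 to 1.27 and 2.18 to 3.27 RPKM in the KO libraries. The sums were higher under induction in both genotypes, and the rise came largely from *S100a8*. Only *S100a8* and *Camp* passed the expression minimum, and *Ngp*, *Ltf*, *Elane* and *Mpo* did not exceed 0.0844 RPKM in any library. *S100a8* was at 0.433 and 0 RPKM before and 1.504 and 1.45 RPKM after induction in WT MSCs, and at 0.220 and 0 RPKM before and 2.43 and 1.61 RPKM after it in KO MSCs, a DEG with higher expression in both (limma adjusted p = 0.0315 and 0.0106). *Camp* went from 1.75 and 1.82 to 1.43 and 1.62 RPKM in WT and from 0.944 and 1.07 to 0.653 and 0.511 RPKM in KO MSCs, and *S100a9* was listed at 0 in all 8 libraries.

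The 5 endothelial markers summed to 0.719 to 0.843 RPKM in undifferentiated and 2.63 to 3.11 RPKM in differentiating WT libraries, and to 0.537 to 0.563 and 4.12 to 4.65 RPKM in the KO libraries. Both tested ones, *Kdr* and *Tek*, were DEGs with higher expression in each genotype (9.69% of tested genes in WT and 13.0% in KO MSCs). *Kdr* passed the expression minimum only through the differentiating libraries, which fixed its direction. *Tek* held most of the sums under induction, at 2.35 and 1.93 RPKM in WT and 3.62 and 4.13 RPKM in KO libraries. *Pecam1*, *Cdh5* and *Emcn* were under the expression minimum and did not exceed 0.0843, 0.0267 and 0.132 RPKM in any library. Osteoblast markers summed to 1225 to 1357 RPKM in undifferentiated and 2097 to 2321 RPKM in differentiating WT libraries, and to 1513 to 1587 and 1170 to 1239 RPKM in the KO libraries. In WT MSCs 1 of the 9 was a DEG with higher expression (9.69% of tested genes), *Ibsp*, from 49.5 and 51.3 to 729 and 661 RPKM. Another 1 had lower expression (4.63%), *Sp7*, from 7.28 and 7.84 to 3.12 and 3.11 RPKM. In KO MSCs 1 was higher (13.0%), *Ibsp*, from 20.2 and 19.7 to 386 and 313 RPKM. There 2 were lower (9.87%), *Sp7*, from 7.76 and 8.63 to 1.36 and 1.69 RPKM, and *Col1a1*. *Col1a1* went from 984.6 and 1048 to 411 and 463 RPKM in KO MSCs and carried most of the fall of the KO sums. The part of these cell types in the levels of the 10 genes was not tested.

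Pearson correlations of log2(RPKM + 0.1) between the 10 genes were 0.963 to 0.999 over 45 pairs and 8 libraries. They take no account of the size of a change, which ran from 0.26 for *Nr3c1* in WT to 7.91 for *Lcn2* in KO MSCs under induction. They are a description over libraries that share the split between states, and the correlations between all tested genes were not computed. By the same measure, among the 12268 genes whose mean reached 1 RPKM, those most like *Fkbp5* were *Snap29*, *Bmp8a*, *Id4*, *Wwp1* and *Fabp4*, all with r = 0.999. Those most like *Zbtb16* included *Hipk1*, *Itga10*, *Cdkn1c* and *Arsj*. *Id4* was at 11.0 to 13.1 RPKM in undifferentiated and 55.3 to 59.1 RPKM in differentiating libraries.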

How the data were processed

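RNA of 8 libraries of MSCs was analysed. Per the labels and the study's methods, the authors removed ribosomal RNA, made stranded libraries, aligned the reads to mm10 with TopHat2 2.1.0 and computed gene values with Cuffdiff (Cufflinks 2.2.1). The authors deposited 1 RPKM value for each gene in each library. The library scaling of Cuffdiff is not given in the sources used here. The total depth is not known from RPKM, and the precision rests on 2 libraries per group.

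From these, log2(RPKM + 0.1) was fitted with a mean for each of 4 groups in limma 3.58.1 (R 4.3.3) with a variance trend, for the 15342 genes whose mean reached 0.1 RPKM. P-values are two-sided and adjusted by Benjamini-Hochberg over these genes. The fit was tested on simulated data. Relative depth and reads came from steps of values under 0.3 RPKM. Positions are from GENCODE vM21 (GRCm38, the same assembly as mm10). Python 3.11.15 and matplotlib 3.10.9 were used.

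The 10 genes and the 18 lists were chosen with earlier results of these data known. Named beside the 10 are at most the 3 genes of a list with the largest change in the comparison described, paralogs, the 5 genes most like *Fkbp5* or *Zbtb16*, and *Dnmt3l*; 1 of the genes most like *Zbtb16* is not reported here. *Actb*, *Ptprc*, *S100a9*, *Lyz2*, *Klf16* and *Mtf1* were named after their values were seen. The same holds for *Cd14*, *Itgam*, *Pecam1*, *Cdh5*, *Emcn*, *Ngp*, *Ltf*, *Elane* and *Mpo*. It also holds for *Hsp90aa1*, *Hsp90ab1*, *Ptges3*, *Stip1*, *Bag1*, *Dnaja1*, *Ncoa2*, *Ncoa3* and *Nrip1*. *Saa3*, *Orm1*, *Orm2*, *Trim63*, *Plin1*, *Cidec*, *Cfd* and *Col1a1* were likewise named after their values were seen. Alternatives covered the pseudocount, expression minimum, scaling, variance model, a replicate block, the libraries fitted and each library left out.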

Additional observations from a re-analysis of the deposited data

Results flagged for a closer look

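For 7 of the 10 genes the change under osteogenic induction differed between the genotypes, by the interaction term in limma, and each was larger in KO MSCs. The difference in log2 fold change, KO minus WT, was 1.51 for *Lcn2*, 1.18 for *Mt1*, 0.76 for *Mt2*, 0.74 for *Tsc22d3*, 0.46 for *Klf9*, 0.21 for *Sgk1* and 0.19 for *Dusp1*. Of all tested genes, 19.4% had such a positive difference. The value of *Lcn2* rests on undifferentiated groups listed at 0 in WT and with 1 read in KO MSCs, and it depends on the pseudocount. At 0.01 it was 0.68 (limma adjusted p = 0.566), and the call was lost. The strongly induced *Fkbp5* and *Zbtb16* are not among the 7. Groups of 2 libraries are too small to look for a library that stands apart.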

How the results depend on the processing

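Of 888 recomputed log2 fold changes of the 10 genes, 842 kept their direction and their side of the adjusted p limit. All 180 values in WT and all 180 in KO MSCs under induction did. Of the rest, 30 lost and 12 gained an adjusted p under 0.05, and 1, *Lcn2* between undifferentiated genotypes without replicate 1 of undifferentiated KO, was 0 with both groups listed at 0. Directions turned for *Fkbp5* in the interaction under quantile normalization (0.0082), for *Nr3c1* between undifferentiated genotypes without replicate 2 of undifferentiated KO (0.0082, range over left-out libraries from -0.035) and for *Zbtb16* in the same comparison without replicate 1 of undifferentiated WT (0.059, range from -0.11). None of these was called.

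With a pseudocount of 0.01 no gene was a DEG between differentiating genotypes (0 against 1) and 1 was in the interaction, as also with a log2 fold limit of 1.5 (1 against 2). Leaving out each library in turn, 0 to 4 of the 10 genes passed the adjusted p between undifferentiated genotypes against 3 with all libraries, 6 to 8 between differentiating genotypes against 7 and 5 to 7 in the interaction against 7. With 1 library left in a group, that library was assumed to vary like the others. Median centring shifted the median of all genes under induction in WT to -0.10 (log2).

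Replicate numbers are not tied to a batch or animal by the labels, and the deviations of equal numbers correlated by -0.092 to 0.030 between groups. These correlations run over all tested genes and cannot exclude that equal numbers share a preparation, so pairing was not settled. With a replicate block, 7 genes in WT and 8 in KO MSCs were DEGs under induction, as without it, and 2, 8 and 6 genes passed the adjusted p between undifferentiated genotypes, between differentiating genotypes and in the interaction.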
